A study of Mus musculus with 9 samples.

Results

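Heterogeneous nuclear ribonucleoproteins (hnRNPs) are RNA-binding proteins that coat newly made transcripts and steer their splicing, export, stability and translation. Several of them also bind long noncoding RNAs or meet p53, the transcription factor that halts or kills damaged cells. The genes described here are 9 of that family, Hnrnpl, Hnrnpll, Hnrnpk, Hnrnpu, Hnrnpc, Hnrnpd, Hnrnpm, Hnrnpa2b1 and Ptbp1, together with Raly, whose protein is a close relative of hnRNP C. They are 10 of the 19938 genes measured, each read from its brightest probe set that carries a single gene symbol. Hnrnpl was chosen as a known RNA-binding partner of p53. Raly was chosen because it differed by hairpin in these data, so its values are given as a description with no test.

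The arrays come from R1E, a line of mouse embryonic stem cells cultured in serum with leukemia inhibitory factor, a cytokine that keeps them undifferentiated, and given no drug. The cells were transduced with a lentivirus that carried shApela_2 or shApela_1, short hairpin RNAs against Apela, or shLuc, a hairpin against luciferase that serves as the control. Apela encodes a short secreted peptide, and the series title presents its RNA as part of a feedback loop on cell death driven by p53. There were 9 arrays, 3 per group, and every group, control included, carried a lentivirus and a hairpin. Nothing in the labels says whether the repeats were separate cultures, so a p-value reflects the spread between these samples alone, and that spread may be technical. Values are log2 expression levels after robust multi-array average (RMA) normalization, so a difference of 1 is a doubling, and levels of different genes are not compared.

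Apela measured 9.79, 9.79 and 9.56 with shApela_2, 9.76, 9.68 and 9.65 with shApela_1, and 11.40, 11.31 and 11.19 with shLuc (arrays 1, 2 and 3 in each group). All arrays of both Apela hairpins lay below all control arrays, and the difference between shApela_2 and shApela_1 was 0.02 (95% interval -0.16 to 0.20). The third shApela_2 array stood apart from the rest: its interquartile range was 3.29, where the other 8 arrays lay between 3.50 and 3.59, and its highest correlation with any array was 0.995, against 0.997 for the lowest pair among the others. Without it, 0 of the 9 members other than Raly passed in any comparison, as with it. The 8 embryonic stem cell markers checked, among them Pou5f1, Nanog and Sox2, all lay above the median probe set of 7.06. Their mean ran from 11.75 to 11.85 with shApela_2, from 11.77 to 11.80 with shApela_1 and from 11.77 to 11.80 with shLuc. Above that median also lay 4 of 6 fibroblast feeder, 4 of 7 trophectoderm and 3 of 6 primitive endoderm markers. So did 2 of 4 neuroectoderm and 1 of 4 primitive streak and mesoderm markers, so this cut alone does not separate cell types. All 10 genes of interest also lay above that median.

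The sequences around an annotated start of Raly and of Hnrnpl are shown because these are the member that differed between the hairpins and the one chosen as a p53 partner. Both windows come from RefSeq (GRCm38.p6) and run from 250 bases before to 50 bases after that start. For both genes that start lies downstream of where the annotated gene begins, so most of the Raly window and all of the Hnrnpl window are inside the gene. Capitals mark the GC box, GGGCGG or CCGCCC on the strand shown.
Raly, chr2:154790860-154791159, plus strand: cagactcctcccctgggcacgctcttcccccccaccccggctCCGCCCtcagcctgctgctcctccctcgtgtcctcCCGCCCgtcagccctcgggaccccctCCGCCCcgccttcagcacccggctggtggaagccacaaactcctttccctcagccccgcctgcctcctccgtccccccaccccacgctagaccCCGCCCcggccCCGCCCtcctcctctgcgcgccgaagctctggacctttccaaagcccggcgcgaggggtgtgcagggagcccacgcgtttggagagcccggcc
Hnrnpl, chr7:28810640-28810939, plus strand: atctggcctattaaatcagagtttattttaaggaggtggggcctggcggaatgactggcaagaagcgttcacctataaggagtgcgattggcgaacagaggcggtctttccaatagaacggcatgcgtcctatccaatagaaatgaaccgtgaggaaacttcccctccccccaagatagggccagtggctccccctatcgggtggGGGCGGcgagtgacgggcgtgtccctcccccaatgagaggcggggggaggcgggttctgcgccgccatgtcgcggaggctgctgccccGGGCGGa
The Raly window held 5 GC boxes and 73.7% G or C. At least 5 such boxes occurred in 2.71% of the 32851 windows of the table, and at least 1 in 35.7%. The Hnrnpl window held 2 GC boxes, 4 copies of CCAAT or its reverse complement ATTGG, and 60.0% G or C, against a median of 52.7% over all windows. Of the 10 genes 9 had a window in the table, 10 windows in all, since Hnrnpa2b1 had an overlapping pair. Close to Raly were Hnrnpu, with 4 GC boxes and 72.7% G or C, and Hnrnpd, with 3 and 72.3%. Hnrnpk held 0 GC boxes and 70.7% G or C. The remaining windows held at most 2 GC boxes and 54.3% to 61.0% G or C. At least 1 GC box stood in 5 of the 10, and a CCAAT box in 6 of the 10, where 37.4% of all windows hold one. The p53 half-site consensus matched in 0 of the 10 windows and in 8.36% of all windows. TATAAA or its reverse complement stood in 1 of the 10, that of Hnrnpm, and in 13.6% of all. These are matches of letters in short windows, and no binding was measured.

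Raly was the member that stood out. Its log2 level was 10.49, 10.51 and 10.56 on the shApela_2 arrays, 9.97, 10.01 and 10.11 on the shApela_1 arrays, and 10.50, 10.55 and 10.55 on the shLuc arrays. The shApela_1 arrays lay apart below both other groups, whose arrays overlapped each other. The difference of means was -0.50 for shApela_1 against shLuc (SE 0.05), which left 70.7% of the control signal. For shApela_2 against shLuc it was -0.01 (SE 0.05), or 99.3% of the control signal. For shApela_2 against shApela_1 it was 0.49 (SE 0.05). Arrays with the same replicate number gave 0.52, 0.50 and 0.44 for shApela_2 minus shApela_1, and -0.53, -0.54 and -0.43 for shApela_1 minus shLuc. A smaller amount of Raly RNA per cell and fewer cells that contain it cannot be told apart in these bulk samples.

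**Figure D1:**
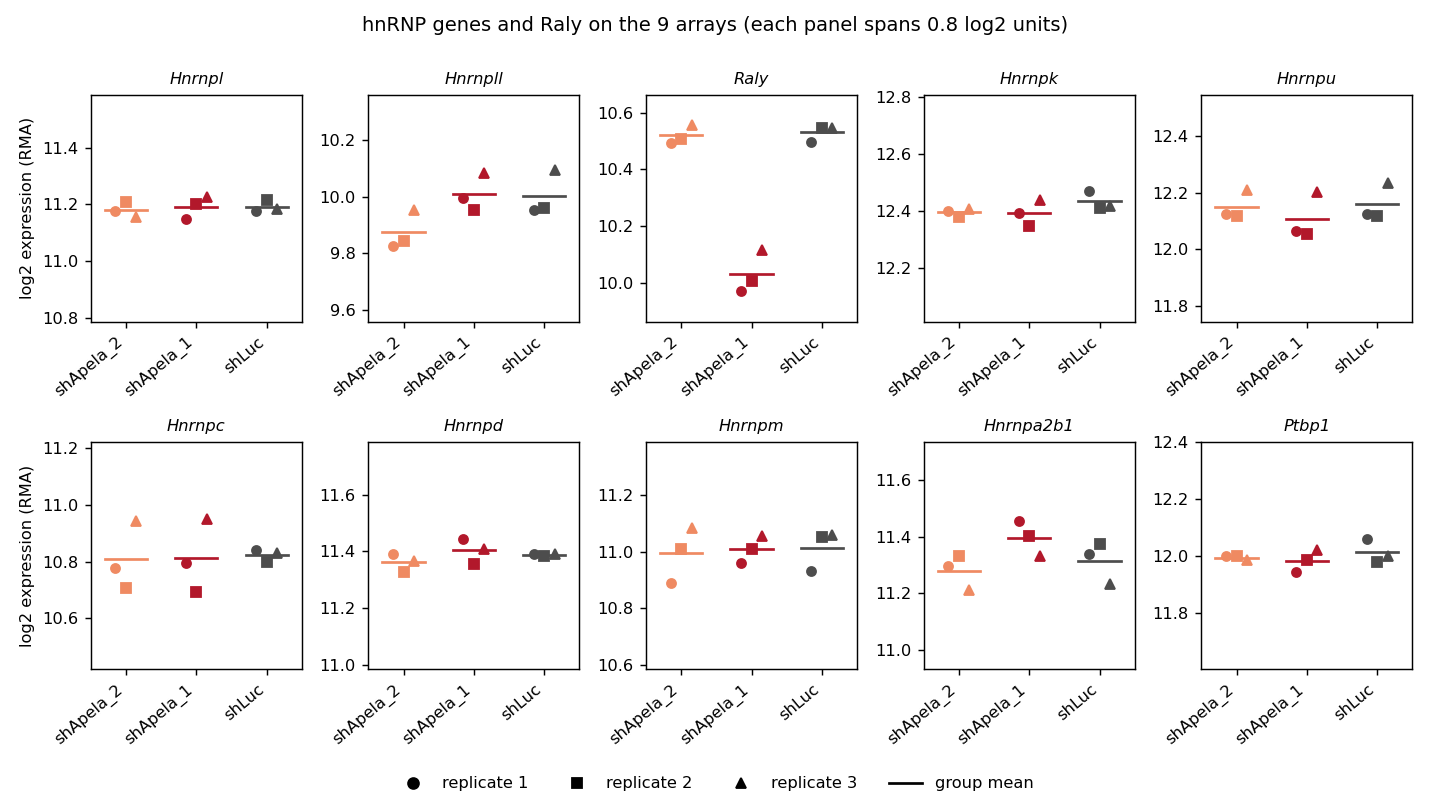
Log2 expression of the 10 genes on each array, with groups along the horizontal axis, a symbol for each replicate number and a bar for the group mean. Every panel spans the same 0.8 log2 units: the Raly panel shows the shApela_1 arrays at 9.97 to 10.11 below the others at 10.49 to 10.56, and in the other panels the groups lie at similar levels.

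Hnrnpl, which binds CA-rich RNA and regulates splicing, hardly differed between groups. It measured 11.18, 11.21 and 11.16 with shApela_2, 11.15, 11.20 and 11.23 with shApela_1, and 11.18, 11.21 and 11.18 with shLuc. All 9 arrays fell within 0.08 of each other and the groups overlapped completely. The difference from shLuc was -0.01 with shApela_2 (95% interval -0.09 to 0.07, limma adjusted p = 0.93) and 0.00 with shApela_1 (95% interval -0.08 to 0.08, limma adjusted p = 1). Between shApela_2 and shApela_1 it was -0.01 (95% interval -0.09 to 0.07, limma adjusted p = 0.897).

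Hnrnpll, the closest relative of Hnrnpl and known for its role in splicing of the CD45 gene in T cells, had the smallest adjusted p of the 9 members other than Raly. It measured 9.83, 9.84 and 9.95 with shApela_2, 9.99, 9.95 and 10.08 with shApela_1, and 9.95, 9.96 and 10.09 with shLuc. The first and second shApela_2 arrays were the lowest of all, while the third reached the level of the lower shApela_1 and shLuc arrays. The difference was -0.13 for shApela_2 against shLuc (SE 0.06, adjusted p = 0.68), 0.01 for shApela_1 against shLuc (SE 0.06, adjusted p = 1) and -0.14 for shApela_2 against shApela_1 (SE 0.06, adjusted p = 0.369), all from limma. With array weights, the last of these passed the threshold (limma adjusted p = 0.0491, difference -0.14). Over the other alternatives its adjusted p ran from 0.0936, in the fit blocked on replicate number, to 0.67.

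Raly's relative Hnrnpc, a packaging protein of pre-mRNA that binds runs of uridine, did not share its pattern. Its level was 10.78, 10.71 and 10.94 with shApela_2, 10.80, 10.69 and 10.95 with shApela_1, and 10.84, 10.80 and 10.83 with shLuc. The third arrays of both Apela hairpins were the highest of the 9, so the spread within those groups (SD 0.12 and 0.13) exceeded that of shLuc (SD 0.02). The differences were -0.01 for shApela_2 against shLuc, -0.01 for shApela_1 against shLuc and -0.00 for shApela_2 against shApela_1, with 95% intervals of which the outermost bounds were -0.19 and 0.17.

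Hnrnpk, a KH-domain protein that binds C-rich RNA and acts as a coactivator of p53, measured 12.40, 12.38 and 12.41 with shApela_2, 12.39, 12.35 and 12.44 with shApela_1, and 12.47, 12.41 and 12.42 with shLuc. Its shApela_2 arrays lay just below all shLuc arrays, and the shApela_1 arrays overlapped both groups. The difference was -0.04 with shApela_2 and -0.04 with shApela_1 against shLuc (limma adjusted p = 0.748 and 1). Hnrnpk had 3 probe sets, and the differences on the other two were -0.03 and -0.06 for shApela_2 and -0.04 and -0.05 for shApela_1.

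Hnrnpu, a nuclear matrix protein that binds RNA and DNA, measured 12.13, 12.12 and 12.21 with shApela_2, 12.07, 12.06 and 12.20 with shApela_1, and 12.13, 12.12 and 12.24 with shLuc. The third array was the highest of its group in all 3 groups, and the third arrays (12.20 to 12.24) lay above all first and second arrays (12.06 to 12.13). This split by replicate number was wider than the differences between groups, which were -0.01 for shApela_2 against shLuc, -0.05 for shApela_1 against shLuc and 0.04 for shApela_2 against shApela_1. Hnrnpll and Hnrnpm were also highest on the third array in all 3 groups, and Hnrnpa2b1 was lowest on it in all 3. The labels do not say what a replicate number marks.

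Hnrnpa2b1, which takes part in splicing and in the transport of mRNA, measured 11.30, 11.33 and 11.21 with shApela_2, 11.45, 11.40 and 11.33 with shApela_1, and 11.34, 11.37 and 11.23 with shLuc. At equal replicate number the shApela_1 array was the highest each time, yet the groups overlapped. The differences were -0.03 for shApela_2 against shLuc, 0.08 for shApela_1 against shLuc and -0.12 for shApela_2 against shApela_1, with limma adjusted p = 0.83, 0.936 and 0.416.

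Hnrnpd, also called AUF1, binds AU-rich elements and promotes mRNA decay. It measured 11.39, 11.33 and 11.37 with shApela_2, 11.44, 11.36 and 11.41 with shApela_1, and 11.39, 11.38 and 11.39 with shLuc, with overlapping groups and limma adjusted p of at least 0.597. Hnrnpm, a splicing regulator, measured 10.89, 11.01 and 11.08 with shApela_2, 10.96, 11.01 and 11.06 with shApela_1, and 10.93, 11.05 and 11.06 with shLuc. Its largest difference was -0.02, for shApela_2 against shLuc.

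Ptbp1, the polypyrimidine tract-binding protein that represses neuronal exons, measured 12.00, 12.00 and 11.98 with shApela_2, 11.94, 11.99 and 12.02 with shApela_1, and 12.06, 11.98 and 12.00 with shLuc. The groups overlapped, and the differences from shLuc were -0.02 with shApela_2 and -0.03 with shApela_1 (limma adjusted p = 0.874 and 1). Its dimmer probe set gave small differences of the other sign, 0.04 with shApela_2 and 0.01 with shApela_1.

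The 9 members other than Raly gave no calls at an adjusted p under 0.05 in limma. Of all genes, 0.336% passed in the comparison of shApela_1 with shLuc, 0.196% as lower. In that of shApela_2 with shApela_1, 0.948% of all genes passed, 0.356% as higher. These shares stand for 67 and 189 genes, and a fit blocked on replicate number called 190 and 653. Between the groups of these comparisons 0 of the 9 members had arrays that did not overlap, beside 13.7% and 17.6% of all genes. With shApela_2 against shLuc, 0 of the 9 passed, beside 0.015% of all genes, and 0 had an unadjusted p under 0.05 in limma, beside 5.77% of all genes. An unadjusted p under 0.05 was found for 1 of the 9, Hnrnpll in the comparison of shApela_2 with shApela_1, where 12.9% of all genes did. With shApela_1 against shLuc 0 of the 9 had one, beside 7.69% of all genes. Their 27 differences were at most 0.14 in size, and all their 95% intervals lay between -0.27 and 0.21. All 9 lay below their shLuc mean with shApela_2, beside 42.5% of all genes, with a median of -0.02 beside 0.02. With shApela_1, 6 of the 9 did so, beside 45.5% of all genes, with a median of -0.01 beside 0.01. The 9 all lay above the median probe set while all genes include dim ones, so these shares do not compare like with like. The part of the narrower range of the third shApela_2 array in them was not tested. For shApela_2 against shLuc, Hnrnpl, Hnrnpu, Hnrnpc, Hnrnpm and Ptbp1 kept their sign in 13, 13, 14, 15 and 15 of the 17 alternatives. Hnrnpll, Hnrnpk, Hnrnpd and Hnrnpa2b1 kept it in all 17. The groups of shApela_2 and shLuc did not overlap for 1 of the 9, Hnrnpk, beside 10.3% of all genes.

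**Figure D2:**
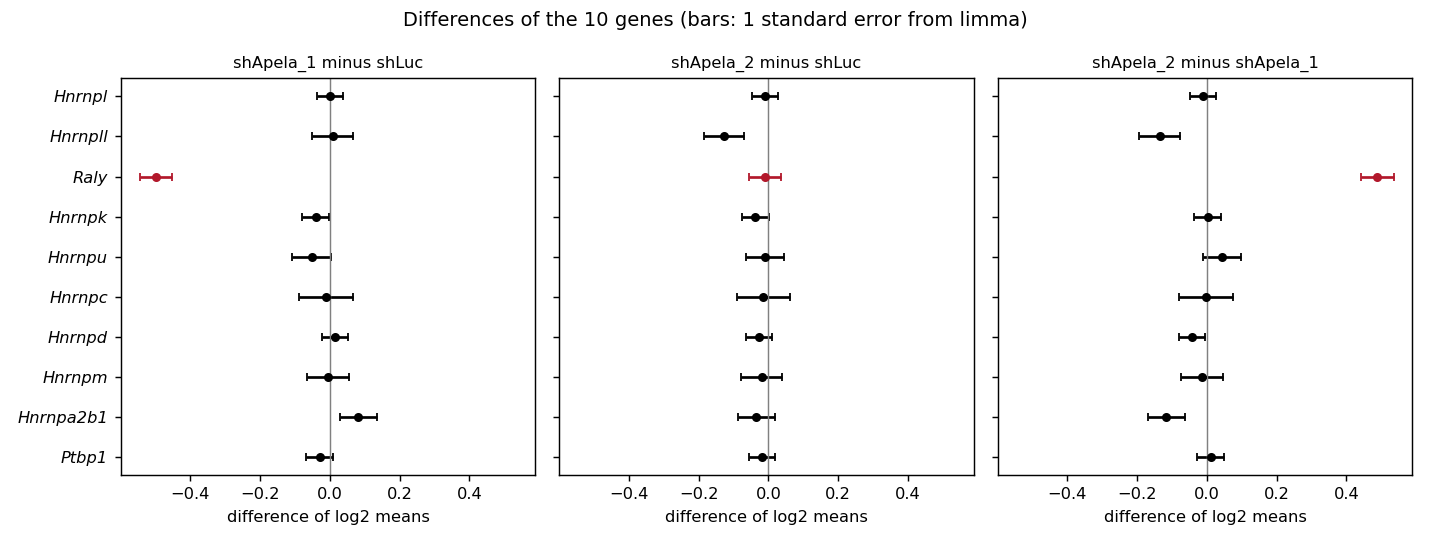
Difference of log2 means for the 10 genes in the 3 comparisons, with bars of 1 standard error. Raly lies at -0.50 for shApela_1 minus shLuc and at 0.49 for shApela_2 minus shApela_1, and the other 9 genes lie within 0.14 of 0 throughout.

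The genes whose log2 values followed those of Raly most closely over the 9 arrays were Nrbf2 (Pearson r 0.987), Bdp1 (r 0.984), Usp9x (r 0.982), Mprip (r 0.982) and Vps35 (r 0.981). These correlations are descriptions across 9 arrays of which 3 share the shApela_1 hairpin. Bdp1, a subunit of the transcription factor TFIIIB of RNA polymerase III, measured 9.72, 9.73 and 9.74 with shApela_2, 9.27, 9.24 and 9.36 with shApela_1, and 9.72, 9.81 and 9.87 with shLuc. Vps35, a retromer subunit, measured 11.03, 11.12 and 11.03 with shApela_2, 10.54, 10.52 and 10.69 with shApela_1, and 11.13, 11.14 and 11.17 with shLuc. All 5 genes were lowest on the shApela_1 arrays, which follows from choosing them for their likeness to Raly. The mean of shApela_1 lay below that of shLuc by 0.20 for Usp9x, a deubiquitinase, by 0.38 for Nrbf2, an autophagy protein, and by 0.69 for Mprip, which binds myosin phosphatase. None of the other 9 members was among them. Hnrnpl varied so little that its closest patterns, those of Abhd18 (r 0.945), Ankrd6 (r 0.902), Cdyl (r 0.888), Akap9 (r 0.863) and Abcg2 (r 0.86), describe small shifts between single arrays.

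The genes next to Raly on the chromosome differed from shLuc by -0.09 to 0.06 with shApela_1. In limma 0 of the 5 measured passed in any comparison, beside 0.015% to 0.948% of all genes. For shApela_1 against shLuc, shApela_2 against shLuc and shApela_2 against shApela_1, 0, 1 and 2 of the 5 had an unadjusted p under 0.05. The shares of all genes were 7.69%, 5.77% and 12.9%. On 1 side lies Eif2s2, which encodes a subunit of translation initiation factor eIF2, followed by a, the nonagouti coat colour gene. Eif2s2 had 2 probe sets, and their places in the genome were not checked. On the brighter probe set, Eif2s2 measured 11.58, 11.54 and 11.56 with shApela_2, 11.44, 11.37 and 11.47 with shApela_1, and 11.54, 11.44 and 11.53 with shLuc. Its shApela_2 arrays lay above the arrays of both other groups, by small amounts. The difference was 0.06 for shApela_2 against shLuc, -0.08 for shApela_1 against shLuc and 0.14 for shApela_2 against shApela_1, with limma adjusted p = 0.691, 0.859 and 0.242. The nonagouti gene lay below the median probe set on all arrays (6.09 to 6.48), with a difference of 0.16 for shApela_2 and -0.01 for shApela_1 against shLuc (limma adjusted p = 0.68 and 1). On the other side, the differences of shApela_1 from shLuc were 0.06 for Chmp4b, -0.06 for Zfp341 and -0.09 for Pxmp4 (limma adjusted p of at least 0.958). Ahcy, the sixth neighbour, was not analysed here.

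**Figure D3:**
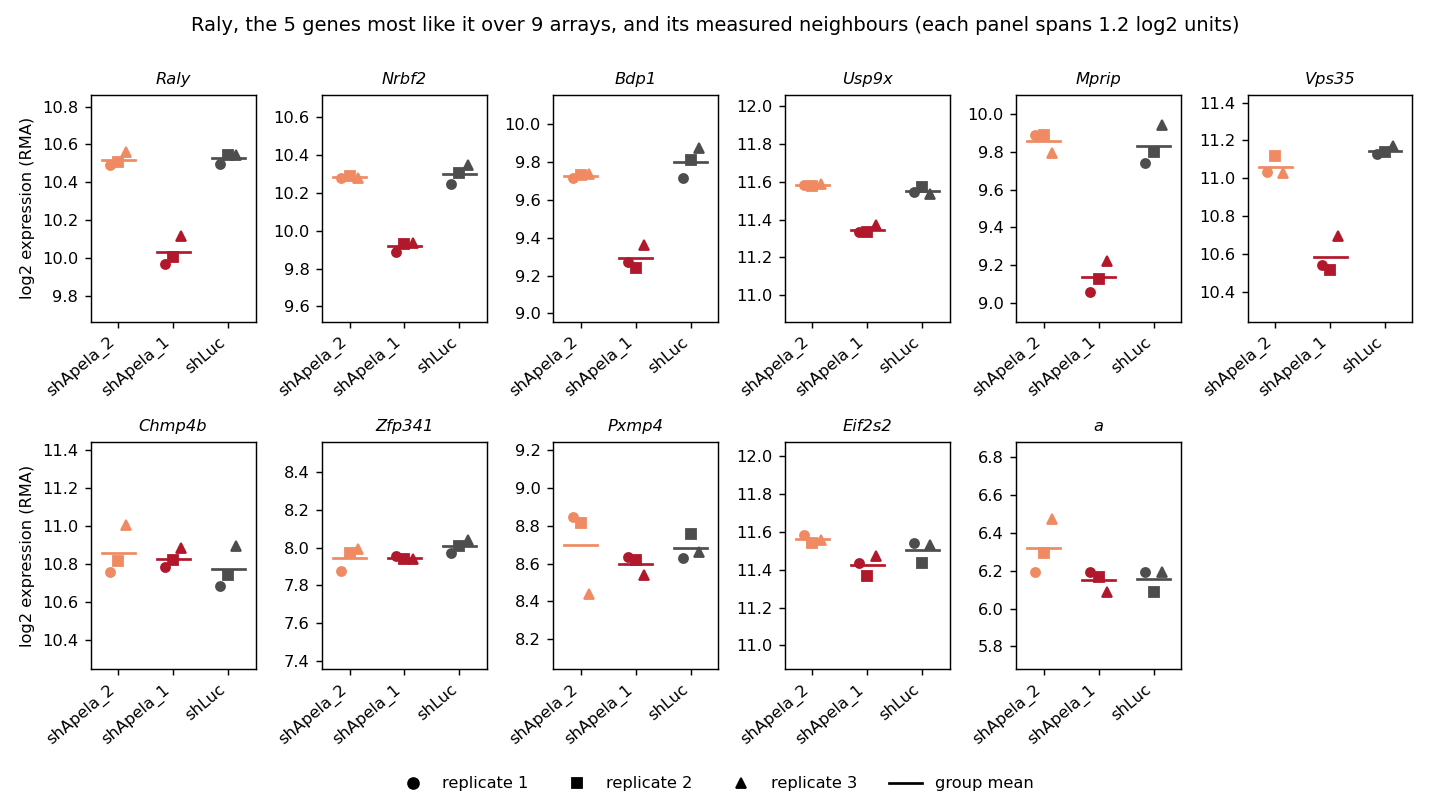
Log2 expression on each array for Raly, the 5 genes most like it over the 9 arrays (upper row) and its 5 measured protein-coding neighbours (lower row), with symbols for replicate numbers and bars for group means. In the upper row the shApela_1 arrays lie below both other groups, by 0.20 to 0.69 against shLuc in the genes beside Raly. These 5 genes were chosen for their likeness to Raly, so the shared pattern follows from that choice. In the lower row the neighbours differ from shLuc by -0.09 to 0.06 with shApela_1.

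Beyond the 10 genes, other hnRNP genes gave no calls. Of 30 further hnRNP and related genes listed, 26 were measured. Hnrnpa1, Hnrnpa3 and Hnrnph3 had only probe sets with several gene symbols. In limma 0 of the 26 passed in any of the 3 comparisons, with 2, 0 and 2 at an unadjusted p under 0.05 for shApela_2 against shLuc, shApela_1 against shLuc and shApela_2 against shApela_1. Of all genes, 0.015%, 0.336% and 0.948% passed in that order, and 5.77%, 7.69% and 12.9% had an unadjusted p under 0.05. The median differences of the 26 were -0.02, 0.02 and -0.03 in that order. The smallest p values belonged to Tardbp, the TDP-43 protein, at -0.13 with shApela_2 against shLuc (adjusted p = 0.68), and to Hnrnpa0, at 0.13 with shApela_1 against shLuc (adjusted p = 0.66) and -0.18 between shApela_2 and shApela_1 (adjusted p = 0.226).

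SR proteins, which often act on exons in opposition to hnRNPs, gave 12 measured genes of 13 listed. In limma 0 of the 12 passed in any comparison, beside 0.015% to 0.948% of all genes. An unadjusted p under 0.05 was found for 0 of the 12, beside 5.77% to 12.9% of all genes. Their median differences were -0.04 for shApela_2 against shLuc, 0.02 for shApela_1 against shLuc and -0.03 for shApela_2 against shApela_1, and the largest difference of any member was 0.14 in size. The smallest p values were those of Srsf6 with shApela_2 against shLuc (-0.06, adjusted p = 0.68), and of Srsf12 with shApela_1 against shLuc (0.13, adjusted p = 0.745) and with shApela_2 against shApela_1 (-0.12, adjusted p = 0.446).

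Splicing regulators outside the hnRNP and SR families included genes that changed. Of the 20 listed and measured, 0 passed with shApela_2 against shLuc (4 at an unadjusted p under 0.05 in limma), 2 fell with shApela_1 against shLuc (7 at an unadjusted p under 0.05), and 5 differed between the hairpins, 2 higher and 3 lower with shApela_2 (10 at an unadjusted p under 0.05). Of all genes, 0.015% passed with shApela_2 against shLuc (5.77% at an unadjusted p under 0.05), 0.196% fell with shApela_1 against shLuc (7.69% unadjusted, in either direction) and 0.948% differed between the hairpins (12.9% unadjusted). The medians of the list were -0.09, 0.02 and -0.12 in that order, beside 0.02, 0.01 and 0.02 for all genes. Esrp1 was already known to fall with shApela_1 when this list was made, so its count is not independent evidence.

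Esrp1 and Esrp2, paralogs that promote epithelial splicing patterns, fell with shApela_1. Esrp1 measured 10.20, 10.24 and 10.30 with shApela_2, 9.68, 9.77 and 9.65 with shApela_1, and 10.21, 10.35 and 10.45 with shLuc. Its shApela_1 arrays lay below all other arrays, while shApela_2 and shLuc overlapped. The difference was -0.64 for shApela_1 against shLuc (SE 0.06, limma adjusted p = 0.0104) and 0.55 for shApela_2 against shApela_1 (SE 0.06, limma adjusted p = 0.0102). Esrp2 measured 7.84, 7.87 and 7.77 with shApela_2, 7.55, 7.47 and 7.54 with shApela_1, and 7.86, 7.88 and 7.88 with shLuc. Here too the shApela_1 arrays lay below the rest, with differences of -0.35 from shLuc (SE 0.04, limma adjusted p = 0.0173) and of 0.31 for shApela_2 against shApela_1 (SE 0.04, limma adjusted p = 0.0155). Against shLuc, the shApela_2 differences were -0.09 for Esrp1 and -0.05 for Esrp2 (limma adjusted p = 0.687 and 0.711).

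The differences of both genes kept their sign and much of their size in all 17 alternatives, -0.70 to -0.58 for Esrp1 and -0.36 to -0.33 for Esrp2 with shApela_1 against shLuc, and 0.51 to 0.59 and 0.27 to 0.34 for shApela_2 against shApela_1. With fewer arrays some calls were lost. Against shLuc, both were lost without the second shLuc array (limma adjusted p = 0.0894 for Esrp1 and 0.115 for Esrp2), without the first shApela_1 array (0.0943 for each) and without the second shApela_1 array (0.07 and 0.132). Esrp2 was also lost without the first shLuc (0.0829), the third shLuc (0.0757) or the third shApela_1 array (0.0541). For shApela_2 against shApela_1, the calls were lost without the first or second shApela_1 array (0.0628 and 0.0525 for Esrp1, 0.065 and 0.0933 for Esrp2), and that of Esrp2 without the first or second shApela_2 array (0.0519 and 0.067). That of Esrp2 was lost as well with centred array medians (0.0507) and with only the compared arrays (0.0939). Trophectoderm markers, which include epithelial keratins, had means of 7.50 to 7.68 with shApela_2, 7.26 to 7.57 with shApela_1 and 7.57 to 7.72 with shLuc. With shApela_1, 6 of 7 were lower than with shLuc, beside 45.5% of all genes. In limma 0 of the 7 passed, beside 0.336% of all genes, and 2 had an unadjusted p under 0.05, beside 7.69%. Lower as well were 5 of 6 primitive endoderm, 4 of 6 fibroblast feeder and 3 of 4 primitive streak and mesoderm markers. So were 2 of 4 neuroectoderm and 5 of 8 embryonic stem cell markers. The part of any of these markers in the Esrp1, Esrp2 and Raly differences was not tested.

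Mbnl1, Celf2 and Khdrbs3 were lower with shApela_2 than with shApela_1. Mbnl1, a muscleblind protein that favours splicing patterns of differentiated cells, measured 8.43, 8.21 and 8.46 with shApela_2, 8.87, 9.02 and 9.11 with shApela_1, and 8.40, 8.41 and 8.64 with shLuc. The shApela_1 arrays were the highest and did not overlap the others. The difference was -0.64 for shApela_2 against shApela_1 (SE 0.09, limma adjusted p = 0.0223). It lost the call without any 1 of the shApela_1 arrays (0.0628, 0.108 and 0.0771), without the first or second shApela_2 array (0.0569 and 0.0746), and with only the compared arrays (0.081), while the difference ran from -0.70 to -0.56 over all 17 alternatives. Against shLuc, Mbnl1 differed by 0.52 with shApela_1 (limma adjusted p = 0.0763, and 0.0271 in the fit blocked on replicate number) and by -0.12 with shApela_2 (limma adjusted p = 0.694).

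Celf2, a CUG-binding splicing factor, measured 7.41, 7.45 and 7.35 with shApela_2, 7.72, 7.79 and 7.60 with shApela_1, and 7.45, 7.53 and 7.49 with shLuc. Khdrbs3, a relative of the splicing factor Sam68, measured 8.65, 8.53 and 8.67 with shApela_2, 8.94, 8.82 and 8.96 with shApela_1, and 8.78, 8.78 and 8.82 with shLuc. The shApela_2 and shApela_1 arrays did not overlap for either gene, as for 17.6% of all genes. The differences between shApela_2 and shApela_1 were -0.30 for Celf2 (limma adjusted p = 0.0497) and -0.29 for Khdrbs3 (limma adjusted p = 0.0496), just past the threshold. Both calls were lost without any 1 array of the 9, except the third shApela_1 array for Celf2 and the third shApela_2 array for Khdrbs3, with limma adjusted p up to 0.207 for Celf2 and 0.209 for Khdrbs3. They were also lost with an intensity trend (0.0813 and 0.0815) and with only the compared arrays (0.174 and 0.181), and that of Khdrbs3 with a further quantile normalization (0.146). The difference ran from -0.36 to -0.14 for Celf2 and from -0.34 to -0.24 for Khdrbs3. The mean of the 2 Celf2 probe sets gave -0.14 (limma adjusted p = 0.16). Celf2 differed from shLuc by 0.21 with shApela_1 and by -0.09 with shApela_2 (limma adjusted p = 0.233 and 0.68). Khdrbs3 differed from shLuc by 0.12 with shApela_1 and by -0.17 with shApela_2 (limma adjusted p = 0.66 and 0.68).

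**Figure D4:**
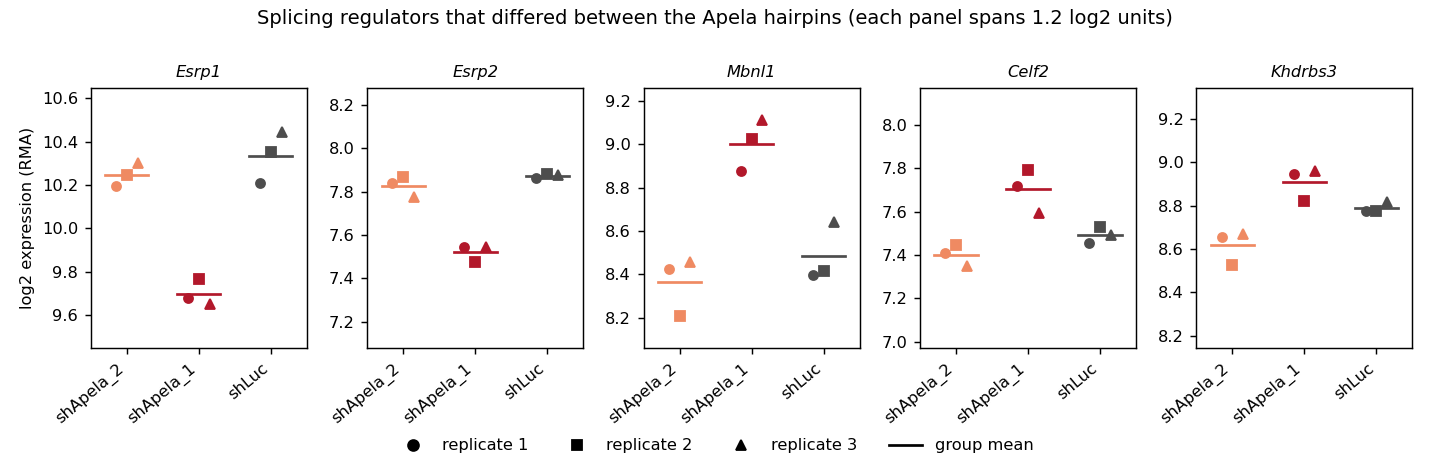
Log2 expression on each array of the 5 splicing regulators that differed between the Apela hairpins, with symbols for replicate numbers and bars for group means. Esrp1 and Esrp2 are lowest with shApela_1 and Mbnl1, Celf2 and Khdrbs3 highest with it, while shApela_2 lies near shLuc for Esrp1 and Esrp2.

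**Figure D5:**
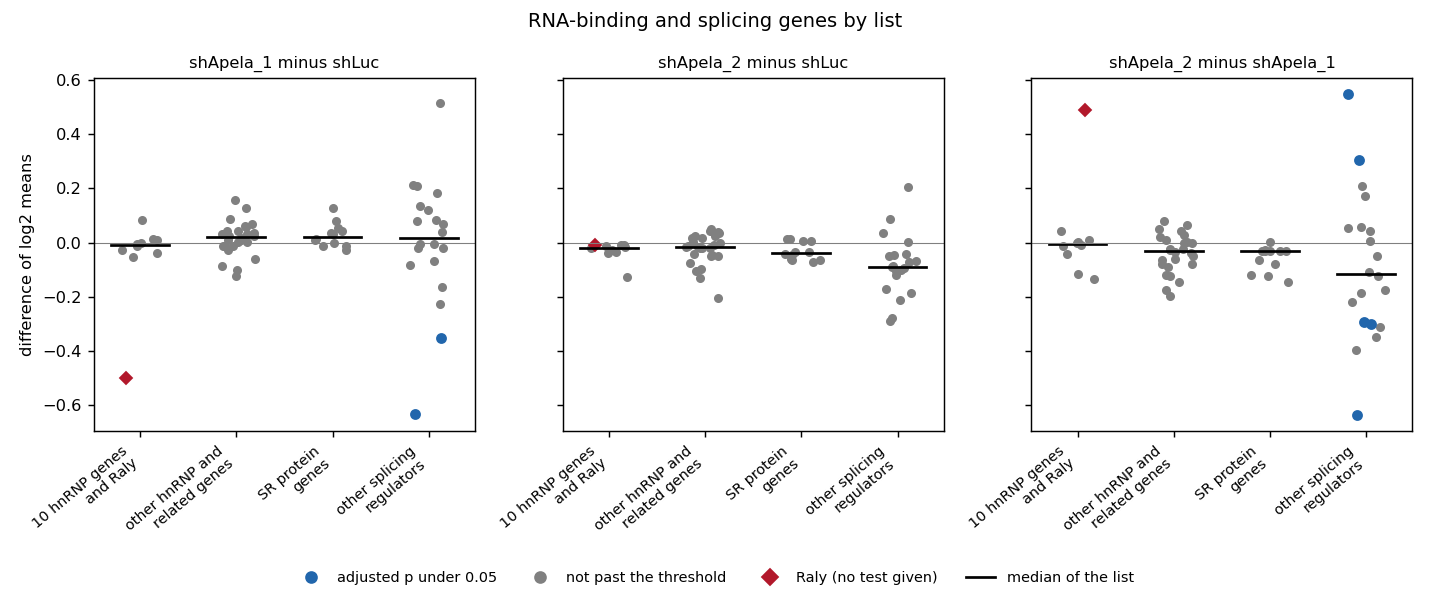
Difference of log2 means of each measured gene in 4 lists, by comparison; the sideways scatter within a list has no meaning. The hnRNP and SR genes cluster near 0 with Raly apart at -0.50 and 0.49, for which no test is given. Of the other genes shown, those past the threshold are the splicing regulators Esrp1 and Esrp2 for shApela_1 minus shLuc, joined by Mbnl1, Celf2 and Khdrbs3 for shApela_2 minus shApela_1.

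The regulators of p53 gave no calls either. Trp53 was not analysed here, and the 6 measured genes were Mdm2, Mdm4, Ppm1d, Usp7, Trp53bp1 and Huwe1. In limma 0 of the 6 passed in any comparison, beside 0.015% to 0.948% of all genes. For shApela_2 against shLuc, shApela_1 against shLuc and shApela_2 against shApela_1, 0, 1 and 1 of the 6 had an unadjusted p under 0.05. The shares of all genes were 5.77%, 7.69% and 12.9%. The smallest p values belonged to Usp7, a deubiquitinase of p53 and Mdm2, with shApela_2 against shLuc (-0.06, adjusted p = 0.68), to Trp53bp1, a DNA damage mediator, with shApela_1 against shLuc (-0.15, adjusted p = 0.577), and to Mdm2, the ubiquitin ligase of p53, with shApela_2 against shApela_1 (-0.20, adjusted p = 0.282).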

How the data were processed

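The deposited table holds 1 log2 value per probe set and array for 28853 probe sets on 9 arrays, made by the authors with RMA in Partek 6.6, per the submitters' processing notes. Its settings and the base of the logarithm are not stated in those notes; the span of the values fits base 2. GEO's platform annotation gave 21775 probe sets 1 gene symbol, 1578 several and 5500 none; 21684 of the first kind matched a RefSeq gene of GRCm38.p6, used for names and for gene order. For each of 19938 genes the brightest probe set was kept. Scanner intensities were not used here. Precision is limited by the number of arrays.

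One fit of all 9 arrays with group as the only term was made with limma 3.58.1 (lmFit, eBayes, two-sided) in R 4.3.3, with 6 residual and 2.72 prior degrees of freedom, and its code was tested on simulated data. Adjusted p is the Benjamini-Hochberg value over all 19938 genes, called under 0.05; levels are per array and SE and 95% intervals are limma's. The comparisons of each Apela hairpin with shLuc share the shLuc arrays, and all 3 comparisons share arrays.

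The members, lists and rules were chosen with earlier results of these data known. Named were all 10 members, Apela, from each list up to 3 genes past the threshold in a comparison with the largest difference or otherwise the 1 with the smallest p, the 5 genes at or above the median probe set (7.06) with the highest Pearson r with Raly and with Hnrnpl, predicted genes and small RNAs left out, and the 3 nearest protein-coding genes on each side of Raly. Celf2 and Khdrbs3 were named as well, chosen after their values were seen, so that all 5 called splicing regulators are given. Deviations from group means correlated between arrays of equal number at 0.44, 0.40 and 0.68 for shApela_1 with shLuc. They did so at 0.18, 0.21 and 0.21 for shApela_2 with shApela_1, and at -0.01, 0.67 and 0.47 for shApela_2 with shLuc. These uneven values do not settle whether the numbers pair the arrays. The main fit had no block, and a fit blocked on replicate number was among the alternatives. The 17 alternatives tried were a robust prior with intensity trend, dim genes left out, a further quantile normalization, centring on array medians, weighted arrays, a block for replicate number, only the compared arrays, averaging all probe sets of a gene, and leaving out each array in turn. Promoter windows, 32851 in all, were RefSeq sequences searched on both strands for the GC, CCAAT and TATA boxes and the p53 half-site.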

Additional observations from a re-analysis of the deposited data

Results flagged for a closer look

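The hairpins differed in 5 of the 20 splicing regulators listed, beside 0.948% of all genes, by limma's test of shApela_2 against shApela_1. That list was made with earlier results of these data known. The log2 differences were 0.55 for Esrp1, 0.31 for Esrp2, -0.64 for Mbnl1, -0.30 for Celf2 and -0.29 for Khdrbs3. In that order, the calls held in 15, 11, 11, 6 and 6 of the 17 alternatives. Raly also lay higher with shApela_2, by 0.49, which is a description with no test because it was chosen for that difference. Groups of 3 arrays are too small for a test of single outlying arrays.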

How the results depend on the processing

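Over 17 alternatives for each comparison no difference past the threshold among the 5 splicing regulators named changed sign; differences near 0, such as those of Hnrnpl (-0.02 to 0.02 for shApela_1 against shLuc), could take either sign. The Raly difference ran from -0.54 to -0.47 for shApela_1 against shLuc and from 0.45 to 0.53 for shApela_2 against shApela_1. No count past the threshold is given for Raly, which was chosen for its difference. Of the 9 members other than Raly, 0 passed in any alternative, except Hnrnpll for shApela_2 against shApela_1 with array weights. Other splicing regulators past the threshold for shApela_1 against shLuc numbered 5 with array weights, against 2 reported, and 0 to 3 when single arrays were left out; for shApela_2 against shApela_1 they numbered 3 with an intensity trend, 8 with array weights and 1 with only the compared arrays, against 5 reported, and 0 to 4 when single arrays were left out.

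Counts over all genes moved more. For shApela_1 against shLuc, 67 as reported became 37 with an intensity trend, 31 with centred array medians, 688 with array weights, 44 with only the compared arrays and 3 to 146 when single arrays were left out. For shApela_2 against shLuc, 3 became 7 with a further quantile normalization, 23 with array weights and 2 to 6 when single arrays were left out. For shApela_2 against shApela_1, 189 became 1446 with array weights, 28 with only the compared arrays and 19 to 222 when single arrays were left out. The further quantile normalization moved the split of higher and lower calls to 29 and 70 for shApela_1 against shLuc, to 1 and 6 for shApela_2 against shLuc and to 134 and 120 for shApela_2 against shApela_1, and centred medians moved the last to 38 and 125. In the fits with a replicate block, counts were 190 for shApela_1 against shLuc, 8 for shApela_2 against shLuc and 653 for shApela_2 against shApela_1. There, 0 of the 9 members other than Raly passed. The other splicing regulators numbered 3 for shApela_1 against shLuc and 7 for shApela_2 against shApela_1. The cause of these shifts was not tested. With 3 arrays a group and no background signal in the values, small differences cannot be resolved, and a missed threshold does not show equal levels.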
